A study of Mus musculus with 15 samples.

Results

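MicroRNA genes are transcribed as long primary RNAs, from which Drosha cuts a hairpin precursor and Dicer1 then releases the short mature strand. The mature strand guides Argonaute proteins to messenger RNAs, mainly through its seed, bases 2 to 8, and microRNAs with a shared seed are counted as a family. Many precursors lie in runs on 1 primary transcript, or inside introns of a host gene, and so are made together with their neighbours or their host. In fetal gonads, microRNA processing is known to be needed in both germ cells and supporting cells.

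The microRNA precursor transcript clusters described here are the array rows whose single gene symbol names a numbered microRNA or a let-7, host transcripts left out. There were 638 such rows, with 592 symbols, among 65956 transcript clusters tested. Of these, 531 lay on autosomes according to their row names and were compared, 70 lay on X and were left out of the comparisons, and 37 had no chromosome in the row name. A transcript cluster is the array's unit for 1 transcribed region. Its level is a normalized log2 signal, and all differences below are in these units. The deposited scale ran from 2.13 to 19.93, which is wider than plain log2 of a 16-bit scanner, so no difference is converted to a fold.

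RNA came from whole fetal mouse gonads at E15.5, by the labels, separated from the mesonephros, with 1 array per sample and 5 arrays in each of 3 groups. The list of deposited sets in the paper names an earlier stage for this one, and the stage used here is that of the labels. dKO XY gonads had the genotype Amh-/-; Inhbb-/-; the labels call them testis, while the study describes dKO XY gonads of this stage as ovotestes. They lack anti-Müllerian hormone and the activin B subunit in every cell. Control XY gonads were wild-type testes, and control XX gonads were wild-type ovaries, all from litters of Amh+/-; Inhbb+/- crosses. In whole gonads, fewer cells of a type and less RNA per cell cannot be told apart.

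At both targeted genes every dKO XY array lay below every control XY array. Amh lay at 4.4 to 4.72 in dKO XY against 10.94 to 12.09 in control XY, and Inhbb at 9.17 to 9.38 against 10.33 to 10.63. Inhbb in dKO XY thus stayed above 5.84, the 95th percentile of the array's background probe sets. Its level alone does not show loss of the gene. The mean level of 4 fetal Leydig cell markers was 16.03 to 16.59 in control XY, 15.67 to 16.21 in dKO XY and 7.35 to 8.62 in control XX. The mean of 5 granulosa cell markers was 6.22 to 6.41 in control XY, 8.20 to 8.60 in dKO XY and 9.85 to 10.01 in control XX, and that of 6 Sertoli cell markers was 9.90 to 10.27, 8.53 to 8.78 and 5.28 to 5.85 in the same order. That list includes the deleted Amh, and without Amh the mean of the other 5 was 9.67 to 9.97, 9.29 to 9.66 and 5.48 to 6.14. Against control XY, all 5 granulosa markers were called higher in dKO XY, 2 of 6 Sertoli markers, Amh and Fshr, were called lower and 0 of 4 Leydig markers were called. By limma's adjusted p alone, 3 Sertoli markers were lower and 1 was higher. The Sertoli differences, with Amh included, ran from -6.96 to 0.99. Of 4 germ cell markers 1 was called higher and 0 lower, and the same held for 4 mesonephros markers. Over all autosomal clusters, 0.534% were called higher and 1.41% lower. The part of these cell type markers in the microRNA differences was not tested.

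The mature strands of the microRNAs on which the results turn are shown to make their seeds visible, from RefSeq (GRCm38.p6), 5′ to 3′, with the seed in capitals. The first set holds microRNAs of the Dlk1-Dio3 region of chromosome 12, whose precursors were called lower in dKO XY than in control XY.
miR-495-3p: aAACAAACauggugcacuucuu
miR-493-3p: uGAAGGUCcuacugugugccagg
miR-543-3p: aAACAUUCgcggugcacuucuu
miR-376b-3p: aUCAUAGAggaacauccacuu
miR-323-3p: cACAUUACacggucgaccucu
miR-1193-3p: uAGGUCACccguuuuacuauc

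The second set was called lower in dKO XY from other chromosomes. These precursors lie at chr10:93162785-93162903 (Mir1931, + strand), chr16:77598936-77599000 (Mir99a, +), chr16:77599657-77599750 (Mirlet7c-1, +), chr2:74726070-74726137 (Mir10b, +), chr5:48223942-48224051 (Mir218-1, +) and chr16:74341990-74342067 (Mir691, - strand).
miR-1931: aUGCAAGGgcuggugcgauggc
miR-99a-5p: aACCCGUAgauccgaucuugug
let-7c-5p: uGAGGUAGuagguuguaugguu
miR-10b-5p: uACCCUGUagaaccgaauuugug
miR-218-5p: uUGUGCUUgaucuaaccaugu
miR-691: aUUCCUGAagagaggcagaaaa

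The third set comes from precursors called higher in the wild-type ovary. Its precursors lie at chr1:23272269-23272339 (Mir30a, +), chr1:23291701-23291784 (Mir30c-2, +), chr13:48538179-48538272 (Mirlet7a-1, -), chr13:48537829-48537917 (Mirlet7f-1, -) and chr9:41581926-41582002 (Mir125b-1, +). The 2 miR-30 strands share the seed GUAAACA, and the let-7 strands here and above share GAGGUAG.
miR-30a-5p: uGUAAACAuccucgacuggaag
miR-30c-5p: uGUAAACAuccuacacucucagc
let-7a-5p: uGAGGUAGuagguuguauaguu
let-7f-5p: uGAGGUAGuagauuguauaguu
miR-125b-5p: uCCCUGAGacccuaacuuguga

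Most microRNA clusters were dim. Their mean levels over the 15 arrays had a median of 5.55, against 5.26 for all autosomal clusters, and 241 of 531 (45.4%) lay above 5.84, the 95th percentile of the array's background probe sets, against 41.0% of all autosomal clusters. Below this level a difference is compressed, so a small value there does not show that a precursor was unchanged. The brightest members, such as Mir3473a and Mir3470b, lay above 16 on some array, in a part of the scale where the deposited values exceed the range of the scanner. Identical values were shared by 33 autosomal rows in 8 groups, so that 531 rows held 506 distinct profiles, and 32 rows lay on another chromosome than the RefSeq gene of that name.

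Whether loss of AMH and activin B changed microRNA precursors in XY gonads was asked by comparing dKO XY with control XY. Of 531 autosomal clusters, 18 were called lower and 0 higher by limma, where a call needed both an adjusted p (Benjamini-Hochberg, over all tested clusters) under 0.05 and a difference of at least 1. Over all 61635 autosomal clusters the same rule called 1.41% lower and 0.534% higher. Of the 18, 14 had a mean level above the background level of 5.84. Mir10b, Mirlet7c-1, Mir376b and Mir380 had means of 5.35, 5.63, 5.44 and 5.52, below it. With the adjusted p alone, 40 members were lower and 3 higher, where the background was 5.81% and 4.33%. At an unadjusted p under 0.05 there were 111 lower (20.9%) and 11 higher (2.07%), where 11.7% and 9.88% of all autosomal clusters were. The 3 higher by adjusted p were Mir30c-2 at 0.94, Mir290b, of a group known from embryonic stem cells, at 0.43, and Mir296 at 0.36, the last 1 named after its value was seen. The median difference of the members was -0.07, beside 0.01 for all autosomal clusters, with 339 of 531 below 0 and 192 above it, against a background of 48.2% and 51.8%. Outside the Dlk1-Dio3 region and the gene Sfmbt2, both described below, 231 of 421 members were below 0, with a median of -0.03. By the adjusted p alone, 15 of these 421 were lower and 3 higher. Groups did not overlap for 38 lower and 2 higher members, where the background was 4.61% and 4.24%. The 37 clusters with no chromosome held 0 calls by limma in each of the 3 comparisons, and in dKO XY against control XY 4 of them (10.8%) were lower and 0 higher at an unadjusted p under 0.05, the lower share close to the 11.7% over all autosomal clusters.

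**Figure D1:**
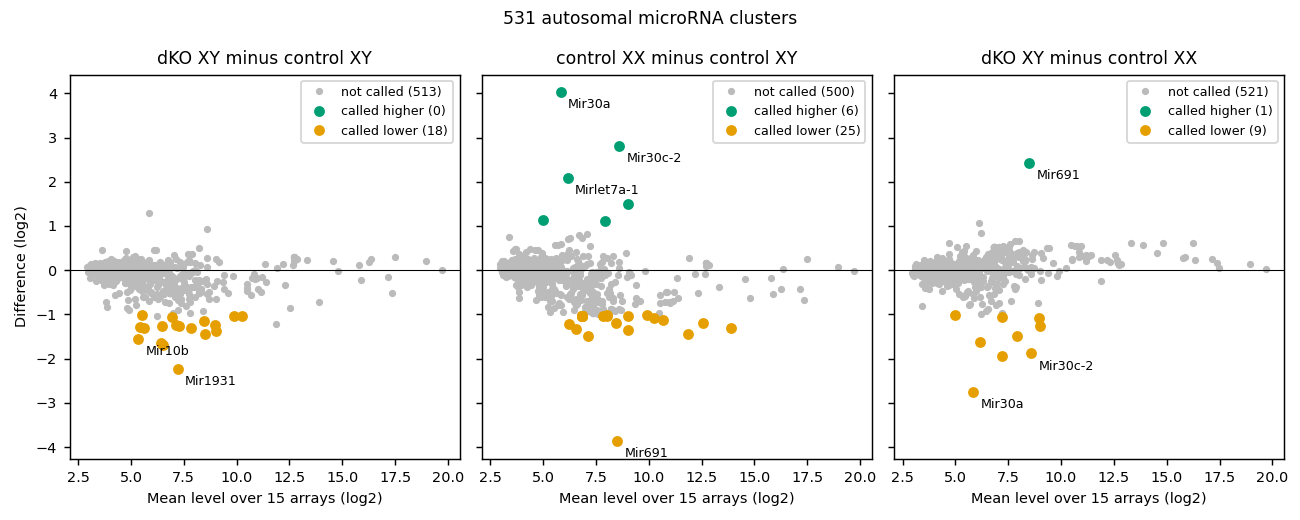
Difference between groups (vertical axis, log2 units) against mean level over 15 arrays (horizontal axis, log2 units) for 531 autosomal microRNA clusters, 1 point per cluster, in 3 comparisons. dKO XY against control XY holds 18 lower and 0 higher calls, control XX against control XY 25 lower and 6 higher, and dKO XY against control XX 9 lower and 1 higher.

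By chromosome, 11 of the 18 lower clusters lay on chromosome 12. This was 11 of the 59 members there (18.6%), while 2.52% of all clusters of chromosome 12 were called lower. The median difference of the chromosome 12 members was -0.57, and that of all clusters on the chromosome was 0.01. On chromosome 2 the 105 members had a median of -0.33 with 1 call, and on each of the other 17 autosomes the median lay between -0.13 and 0.05. Chromosome 16 held 3 lower calls, and chromosomes 2, 5, 10 and 13 held 1 each.

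**Figure D2:**
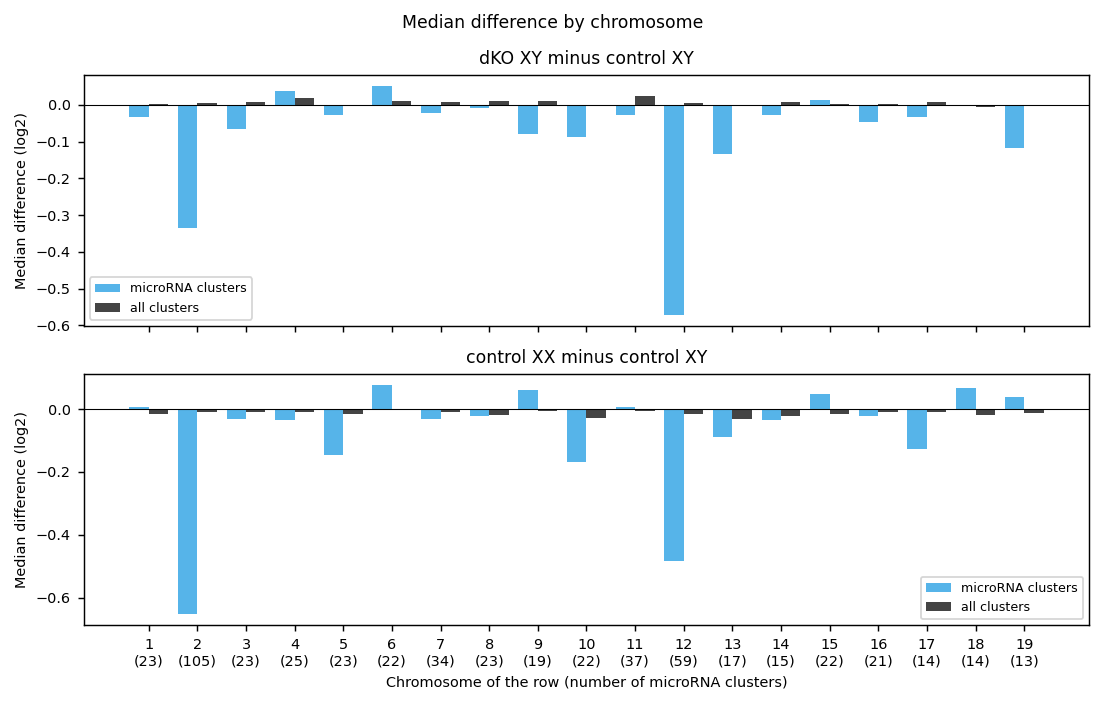
Median difference (log2 units) of the microRNA clusters and of all clusters on each autosome, with the number of microRNA clusters in brackets. Chromosomes 2 and 12 stand below the rest in both comparisons, at -0.33 and -0.57 in the upper panel, while the medians of all clusters stay near 0.

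All 11 calls of chromosome 12 lay between Dlk1 and Dio3, in RefSeq order. This is an imprinted region in which Dlk1 and Dio3 are expressed from the paternal chromosome and a long maternal RNA carries the microRNAs. It held 42 members, and all 42 were below 0 in dKO XY, with a median of -0.73 and a range from -1.64 to -0.09. With the adjusted p alone, 24 of 42 were lower. Of all autosomal clusters, 5.81% were lower by this rule and 48.2% were below 0. The 17 other members of chromosome 12 had a median of -0.03 and 0 calls by limma, with 1 lower and 1 higher (5.88% each) at an unadjusted p under 0.05, no more than the 11.7% and 9.88% over all autosomal clusters. Of the 42, 24 lay above the background level, and these had a median of -0.95 with 9 calls. Of 55 microRNAs listed for this region from general knowledge, 36 were measured, and 10 were called lower.

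The 42 fell into 3 runs of neighbours and 1 single precursor, Mir882, at -0.50. The run from Mir379 to Mir409 held 26 members with 10 calls and a median of -0.87. The run from Mir673 to Mir136 held 12 members with 1 call, Mir493, and a median of -0.63. The 3 members from Mir341 to Mir370 had a median of -0.93 with 0 calls, and Mir1188 there, at -0.98 (adjusted p = 0.000752 by limma), lay just under the difference needed. Their mature strands did not form 1 seed family, since 78 strands of the 42 members carried 71 different seeds, and 7 seeds occurred in a pair of members. One such pair was Mir376b and Mir376c, both called lower. They shared the seed UGGAUAU, which is not that of the miR-376b-3p strand shown above.

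Mir495 fell most in this region. Its level was 5.14, 6.42, 5.70, 5.15 and 5.50 in dKO XY, 7.50, 5.63, 7.59, 7.51 and 7.89 in control XY, and 5.85, 7.17, 6.95, 5.83 and 6.75 in control XX, replicates 1 to 5 in order. Replicate 2 of control XY lay within the dKO XY range, and the other 4 lay above all dKO XY arrays. The difference between dKO XY and control XY was -1.64 ± 0.39 (SE, n = 5 per group, limma adjusted p = 0.0123).

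Mir493 lay at 8.07, 9.16, 8.44, 8.53 and 8.53 in dKO XY, at 9.46, 9.07, 9.72, 9.95 and 11.35 in control XY, and at 8.47, 8.83, 8.64, 8.40 and 8.46 in control XX. It fell by 1.36 ± 0.31 (limma adjusted p = 0.00927) in dKO XY, with the highest dKO XY array just above the lowest control XY array. Replicate 5 of control XY stood well above the rest of its group, and without it the difference was -1.0, the smallest with any array left out.

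Mir543 and Mir323 separated the groups fully. Mir543 lay at 6.61 to 7.94 in dKO XY, 8.0 to 8.98 in control XY and 7.43 to 7.88 in control XX, a fall of 1.30 ± 0.21 (limma adjusted p = 0.000949). Mir323 lay at 5.73 to 6.28, 6.57 to 7.62 and 5.87 to 6.56, a fall of 1.27 ± 0.18 (limma adjusted p = 0.000215). For both, the control XX arrays also lay wholly below control XY.

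Mir376b, Mir1197, Mir1193, Mir679 and Mir453 fell by 1.28, 1.26, 1.23, 1.15 and 1.04, with limma adjusted p from 0.000243 to 0.00269, and none of their dKO XY arrays reached the control XY range. Mir376c and Mir380 were called lower at -1.06 and -1.02, with adjusted p of 0.0350 and 0.0348 by limma, and each lost its call when any of 6 single arrays was left out. Mir453 lost it without any of 4 and Mir679 without replicate 5 of control XY, at -0.94. Just outside the rule stood Mir329, at -1.04 with an adjusted p of 0.0595, and Mir544, at -0.97 with an adjusted p of 0.000174 by limma. The third member of the miR-376 number family, Mir376a, was at -0.60 (adjusted p = 0.0283).

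**Figure D3:**
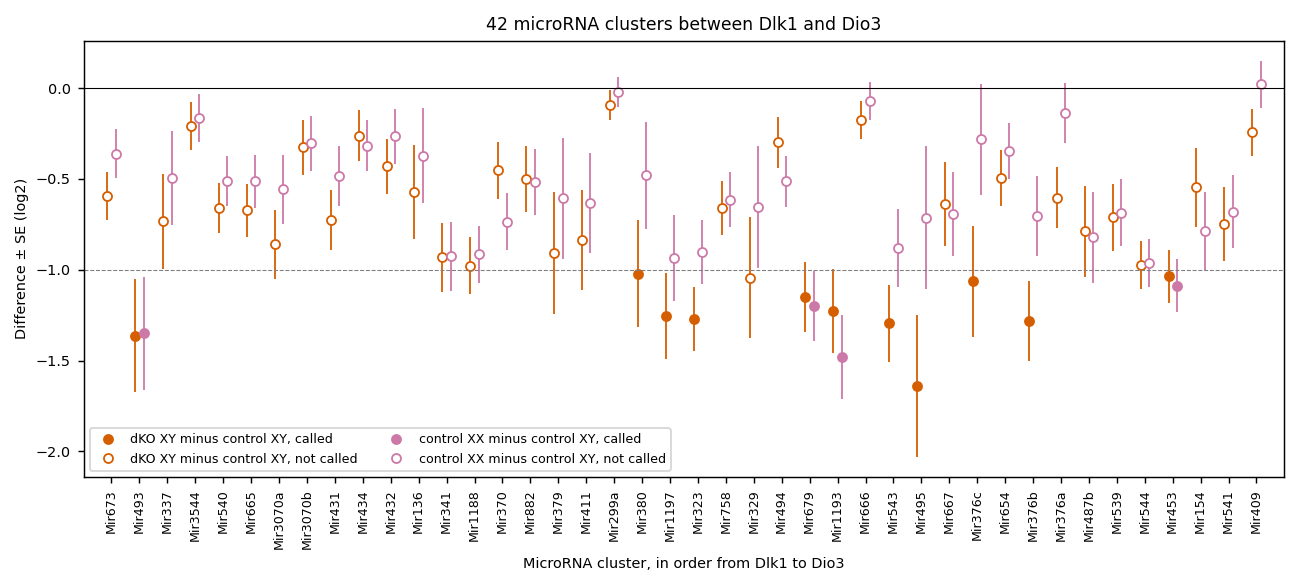
Difference ± SE (log2 units) of each of 42 microRNA clusters between Dlk1 and Dio3, in RefSeq order, for dKO XY and for control XX, each minus control XY; filled points were called and the dashed line marks -1. All 42 dKO XY points and 41 of 42 control XX points lie below 0; both comparisons use the same 5 control XY arrays.

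The protein-coding Dlk1, a transmembrane inhibitor of differentiation, was 9.34 in dKO XY and 10.68 in control XY on average, a fall of 1.34 (limma adjusted p = 0.000581). Dio3, which inactivates thyroid hormone, lay near background in all groups, at 3.89 in dKO XY and 3.9 in control XY. The median level of the 42 microRNA clusters was 5.97, 6.29, 5.78, 5.75 and 5.80 on the dKO XY arrays, 6.70, 6.40, 6.66, 7.11 and 7.29 on the control XY arrays, and 5.99, 6.37, 6.51, 5.88 and 6.26 on the control XX arrays. The dKO XY arrays all lay below the control XY arrays, and replicate 2 of each XY group lay nearest to the other group. Without replicate 2 of control XY, 17 of the 42 were called lower, and without replicate 5 of control XY, which had the smallest distance between positive and negative control probe sets (4.31, others 4.65 to 5.21), 8 were called and the median was -0.59. Leaving out any 1 array kept all 42 below 0.

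**Figure D4:**
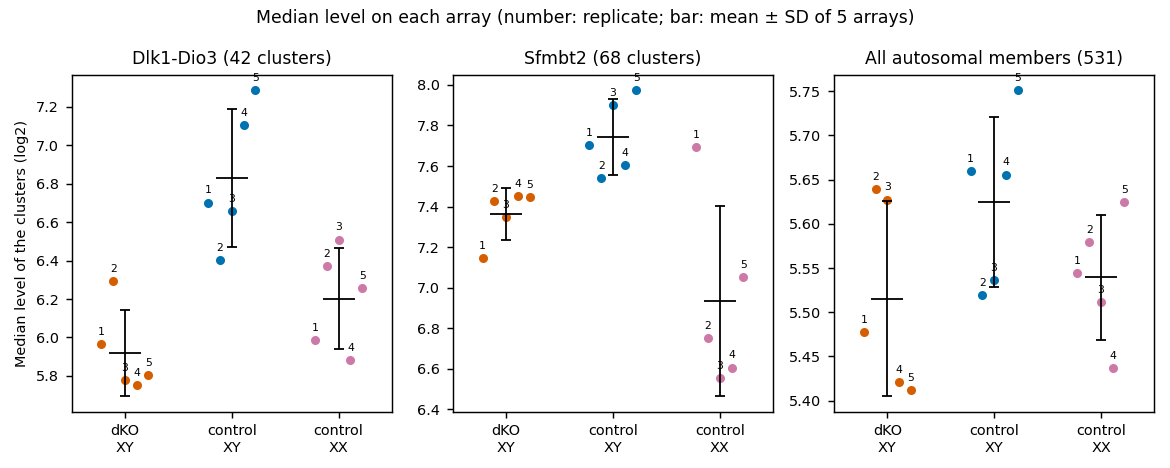
Median level (log2 units) of the microRNA clusters in the Dlk1-Dio3 region, in the Sfmbt2 region and over all autosomal members on each of 15 arrays; numbers are replicates and bars are mean ± SD of 5 arrays. In the first panel the dKO XY arrays (5.75 to 6.29) lie below the control XY arrays (6.40 to 7.29), and in the second replicate 1 of control XX (7.70) lies within the control XY range.

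Outside chromosome 12, 7 members were called lower in dKO XY. Mir1931, which lies within the cyclin-dependent kinase gene Cdk17 on chromosome 10, had the largest difference of all members. Its level was 5.90, 6.06, 5.60, 5.85 and 5.71 in dKO XY, 7.87, 8.04, 7.99, 8.28 and 8.05 in control XY, and 7.81, 7.86, 7.56, 7.33 and 8.20 in control XX. Every dKO XY array lay more than a full unit below every control array of either sex. It fell by 2.22 ± 0.14 against control XY (limma adjusted p = 7.48e-08) and by 1.93 ± 0.14 against control XX (limma adjusted p = 7.85e-08), while the controls differed by -0.29 (adjusted p = 0.149). Cdk17 itself was at -0.25 (limma adjusted p = 0.0356) against control XY. Amh, the targeted gene, is also on chromosome 10, and sequence carried along with the targeted locus and the loss of the gene cannot be told apart for Mir1931.

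Mir99a and Mirlet7c-1 are neighbours on chromosome 16 within the host transcript Mir99ahg. Mir99a lay at 6.97, 5.64, 5.64, 5.89 and 5.15 in dKO XY, 7.97, 6.58, 7.12, 7.68 and 8.34 in control XY, and 5.16, 6.52, 7.07, 6.20 and 6.11 in control XX. It fell by 1.68 ± 0.38 in dKO XY (limma adjusted p = 0.00923), although replicate 1 of dKO XY lay above replicate 2 of control XY. Mirlet7c-1 fell by 1.30 ± 0.28 (limma adjusted p = 0.00574), from 5.26 to 6.86 in control XY to 4.35 to 5.61 in dKO XY, again with some overlap. Mirlet7c-2, with the same seed GAGGUAG, lay at 4.55 on average, in the background, with a difference of 0.02 (limma adjusted p = 0.925). The 10 let-7 members had a median of -0.12 in this comparison, with 1 call, 6 below 0 and 4 above it. Mir99ahg was at -0.76 (limma adjusted p = 0.00157), and Mir125b-2, the other member of this locus, was at -0.60 (adjusted p = 0.0647). Mir100, which shares the miR-99a seed ACCCGUA on chromosome 9, was at -0.47 (adjusted p = 0.219).

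Mir10b, which lies among the Hoxd3 and Hoxd4 genes on chromosome 2, lay at 5.12, 4.92, 4.56, 4.54 and 3.98 in dKO XY, 6.21, 5.41, 6.27, 6.39 and 6.63 in control XY, and 4.49, 5.78, 5.91, 5.12 and 4.86 in control XX. All dKO XY arrays were below all control XY arrays, and control XX spanned both. Every dKO XY array lay under the background level of 5.84. The fall in dKO XY was 1.55 ± 0.28 (limma adjusted p = 0.00205). Of the 4 measured members of the miR-10 and miR-196 genes, which all lie in Hox clusters, Mir10b was the only 1 called in this comparison, and Mir196a-1 was at -0.61 (adjusted p = 0.0178).

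Mir218-1 and Mir691 lie in genes of axon guidance, Mir218-1 in the ligand gene Slit2 and Mir691 in the receptor gene Robo2, each on the strand of its host. Mir218-1 lay at 7.91 to 8.61 in dKO XY, 8.71 to 10.05 in control XY and 8.53 to 9.88 in control XX. The fall in dKO XY was 1.23 ± 0.26 (limma adjusted p = 0.00502), and Slit2 was at -0.74 (limma adjusted p = 0.00374). The second copy, Mir218-2, encodes the same mature strand within Slit3, and lay at 4.30 on average, in the background, with a difference of -0.01, while Slit3 itself fell by 1.06.

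Mir691 lay at 8.64, 9.03, 8.48, 9.07 and 8.92 in dKO XY, 10.11, 9.97, 10.06, 10.60 and 10.58 in control XY, and 6.56, 6.26, 6.27, 6.26 and 6.66 in control XX. The 3 groups did not overlap, with dKO XY between the controls. It fell by 1.44 ± 0.15 in dKO XY (limma adjusted p = 1.32e-05) and by 3.86 ± 0.15 in control XX (limma adjusted p = 2.24e-11), each against control XY. Robo2 fell by 1.04 and by 4.35 in the same comparisons, with both groups likewise apart from control XY. The last of the 7 calls was a row on chromosome 13 named Mir325, at -1.03 (limma adjusted p = 0.0186), whose RefSeq gene is on X. It lost its call without any of 5 single arrays, and is not read as that microRNA.

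**Figure D5:**
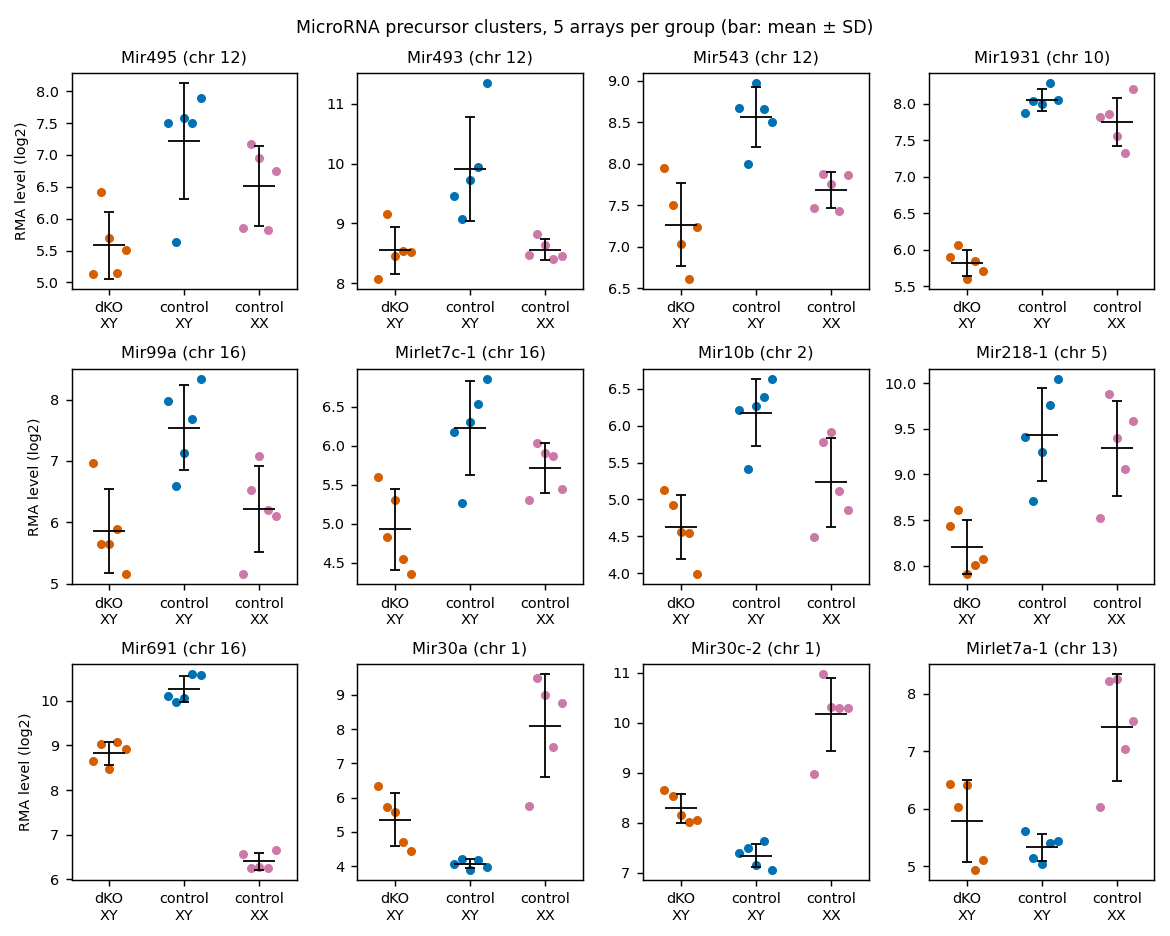
Level (log2 units) of 12 microRNA clusters on each of 5 dKO XY, 5 control XY and 5 control XX arrays; points are arrays and bars are mean ± SD. Mir1931 is low only in dKO XY (5.60 to 6.06), Mir691 steps down from control XY over dKO XY to control XX, and Mir30a, Mir30c-2 and Mirlet7a-1 are highest on most control XX arrays.

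The background of the sex difference was measured by comparing control XX with control XY. In control XX, 6 autosomal members were called higher and 25 lower, where 2.47% and 3.03% of all autosomal clusters were called. The 25 lower rows held 17 distinct profiles. With the adjusted p alone 23 were higher and 112 lower, where the background was 10.8% and 13.3%. Most of the lower members lay in the Dlk1-Dio3 region or within Sfmbt2 on chromosome 2, both described below. Outside both, 34 of 421 members were lower and 23 higher by the adjusted p alone. Of these 421, 6 were called lower and 6 higher, and their median was -0.02. The median of the members was -0.08, beside -0.01 for all autosomal clusters, with 335 of 531 below 0, where the background was 52.8% below 0 and 47.2% above it. Groups did not overlap for 47 lower and 16 higher members, where the background was 9.81% and 8.42%. With 1 array left out, the count of lower calls ranged from 10 to 43. It was 12 with the arrays centred on their medians.

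The 6 higher members came from 3 families. The miR-30 family has 7 members in the table, and 3 were called higher, with a median of 0.74. Mir30a and Mir30c-2 lie on chromosome 1, and Mir30d and Mir30b are neighbours on chromosome 15. Mir30a lay at 5.74, 9.49, 9.0, 7.49 and 8.76 in control XX, 4.07, 4.21, 3.89, 4.19 and 3.98 in control XY, and 6.32, 5.71, 5.57, 4.71 and 4.43 in dKO XY. In control XY all arrays were in the background, in control XX all were above them, and dKO XY lay above control XY on each array but reached the lowest control XX array. The difference between the controls was 4.03 ± 0.54 (limma adjusted p = 2.80e-05), and that between dKO XY and control XY, 1.28 ± 0.54, did not pass the test (adjusted p = 0.169).

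Mir30c-2 lay at 8.98, 10.97, 10.31, 10.29 and 10.29 in control XX, 7.40, 7.49, 7.16, 7.63 and 7.06 in control XY, and 8.66, 8.54, 8.16, 8.02 and 8.07 in dKO XY. The 3 groups did not overlap, with dKO XY between the controls. Over control XY it was higher by 2.82 ± 0.27 in control XX (limma adjusted p = 5.50e-07) and by 0.94 ± 0.27 in dKO XY (limma adjusted p = 0.0315), which is just below the difference needed for a call. dKO XY lay below control XX by 1.88 ± 0.27 (limma adjusted p = 9.68e-05).

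Mir30d was 9.41 to 10.32 in control XX, 8.38 to 8.53 in control XY and 8.49 to 8.94 in dKO XY, so that the control XX arrays stood alone. The difference between the controls was 1.49 ± 0.15 (limma adjusted p = 1.55e-06). Its neighbour Mir30b was higher by 0.74 (limma adjusted p = 0.000433), and Mir30c-1, Mir30e and Mir30f were at 0.23, 0.57 and 0.20 and did not pass the test.

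The let-7 family, known for its control by Lin28 proteins, has 10 members in the table, and 2 of them, neighbours on chromosome 13, were called higher in control XX. Mirlet7a-1 lay at 6.02, 8.22, 8.25, 7.05 and 7.52 in control XX, 5.62, 5.14, 5.04, 5.41 and 5.44 in control XY, and 6.43, 6.03, 6.41, 4.94 and 5.11 in dKO XY. Control XX lay above control XY on each array, and dKO XY straddled both. The difference between the controls was 2.08 ± 0.38 (limma adjusted p = 0.000582). Mirlet7f-1 differed by 1.10 ± 0.32 (limma adjusted p = 0.0168) and lost its call without replicate 2 of either control, while Mirlet7d, in the same run of 3, was at 0.29 (adjusted p = 0.137), and the median of the 10 was 0.16. Grouping by seed in place of the number in the symbol joined Mir1961 and left out Mirlet7a-2, and kept 2 of 10 higher. Leaving out Mirlet7a-2 does not show that its seed differs, since only 396 of 509 autosomal symbols had a mature sequence to group by.

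The sixth member, Mir125b-1 on chromosome 9, was called at 1.13 ± 0.30 (limma adjusted p = 0.00996), from a level of 4.18 to 5.14 in control XY that lay within the background. Mir125b-2, which shares its seed CCCUGAG, went the other way in control XX, at -0.79, and passed limma's adjusted p. All its control XX arrays lay below its control XY arrays. Replicate 1 of control XX was the lowest of its group for Mir30a, Mir30c-2, Mir30d and Mirlet7a-1. On that array Cyp17a1, a steroid-synthesis enzyme of Leydig cells, was 11.12, against 8.01 to 9.11 on the other control XX arrays. The part of steroid-synthesis cells in these values was not tested. Without that array the differences of Mir30a, Mir30c-2 and Mirlet7a-1 were 4.62, 3.12 and 2.43, the largest with any array left out.

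The lower members in control XX included 15 rows, with 7 distinct profiles, of a run of 68 within Sfmbt2 on chromosome 2. Sfmbt2 is an imprinted Polycomb-related gene whose intron carries a large rodent cluster of miR-466, miR-467 and miR-669 genes. The 68 rows held 66 symbols and 46 distinct profiles. The counts below are of rows, so a shared profile counts more than once. In control XX 67 of 68 were below 0, with a median of -0.84, where 52.8% of all autosomal clusters were below 0. By the adjusted p alone 54 of the 68 were lower, where the background was 13.3%. In dKO XY against control XY the 68 had a median of -0.41 with 0 calls by limma, and 66 were below 0. There, 1 was lower by the adjusted p alone and 28 (41.2%, against 11.7% of all autosomal clusters) at an unadjusted p under 0.05. The 37 other members of chromosome 2 had a median of 0.06 in control XX. Sfmbt2 itself was at 6.76 in control XX, 8.63 in control XY and 8.02 in dKO XY, and fell by 1.87 in control XX (limma adjusted p = 4.04e-06).

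By family, 13 of 33 miR-669 rows, 2 of 31 miR-466 rows and 2 of 18 miR-467 rows were called lower in control XX, counted over all autosomes. These copies are near-identical, and probes can be shared between them, so rows of these families are not separate measurements. Mir669k, with a profile of its own, lay at 5.76, 5.72, 5.46, 5.25 and 5.45 in control XX, 6.27, 6.64, 6.97, 6.68 and 7.17 in control XY, and 6.03, 6.54, 6.43, 6.41 and 6.39 in dKO XY. Control XX lay below both other groups on every array. It fell by 1.22 ± 0.15 (limma adjusted p = 1.15e-05), and in dKO XY it was at -0.39 (adjusted p = 0.130).

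Rows Mir669a-4 to Mir669a-12 shared 1 profile, at 6.0 to 6.95 in control XX, 7.07 to 7.68 in control XY and 6.68 to 7.06 in dKO XY. Their difference of -1.03 (limma adjusted p = 0.000134) lies on the edge of the rule and lost its call without any of 3 single arrays, and 9 of the 15 calls are this 1 profile. Mir467c and Mir466f-1 on chromosome 2 fell by 1.12 and 1.19 (limma adjusted p = 0.00195 and 0.00256). Replicate 1 of control XX stood within the control XY range in the median level of the 68, at 7.70 where the other control XX arrays were 6.55 to 7.05, and without it 34 of the 68 were called lower. Without replicate 2 of control XY 24 were called, without replicate 4 of control XX 3, and without replicate 3 of control XX or replicate 5 of control XY 4 each.

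The Dlk1-Dio3 members were lower in control XX as well, with a median of -0.61 and 4 calls. By the adjusted p alone 24 of the 42 were lower, where the background was 13.3%. The calls were Mir1193 at -1.48, Mir493 at -1.35, Mir679 at -1.2 and Mir453 at -1.09, all called in dKO XY too. Mir493 and Mir679 lost the call in control XX without replicate 5 of control XY, each at -0.99, and Mir453 without replicate 4 of control XX, at -0.96. Both comparisons share the control XY arrays, so that chance in these arrays enters both. Against control XX, the 42 members of dKO XY had a median of -0.12, and 0 passed limma's adjusted p, with 4 lower (9.52%) at an unadjusted p under 0.05, where 12.2% of all autosomal clusters were. Mir99a was lower in control XX than in control XY by 1.33 ± 0.38 (limma adjusted p = 0.0177) and lost its call without replicate 1 of control XX (adjusted p = 0.0502). Mir196a-1, in the Hoxb cluster, fell by 1.01 ± 0.15 (limma adjusted p = 9.46e-05), just past the difference needed. It lost the call without any of 5 single arrays, with values from -0.99 to -0.90, and also with centring, a second quantile normalization or array weights.

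In the third comparison, of dKO XY with control XX, 1 member was higher and 9 were lower, where 1.17% and 1.2% of all autosomal clusters were called. With the adjusted p alone 19 were higher and 24 lower, where the background was 7.52% and 7.55%. Groups did not overlap for 5 higher and 18 lower members, where the background was 6.4% and 5.9%, and 283 lay above 0 and 248 below, where it was 53.7% and 46.3%. The higher one was Mir691, by 2.43 ± 0.15 (limma adjusted p = 1.38e-08). The lower ones were Mir30a by 2.75, Mir1931 by 1.93, Mir30c-2 by 1.88, Mirlet7a-1 by 1.63, Mirlet7f-1 by 1.49, Mir30d by 1.25, Mir218-1 by 1.08, Mir15b by 1.06 and Mir125b-1 by 1.02. Of these, Mir15b (limma adjusted p = 0.0489) lost its call without any of 11 single arrays, Mir125b-1 without any of 5 and Mir218-1 without replicate 2 of control XX, at -0.94. Mir1931 and Mir218-1 were the only 2 members called lower in dKO XY against both controls. In the Sfmbt2 run, 14 of 68 rows were higher in dKO XY with the adjusted p alone, with a median over the 68 of 0.40. Rows Mir669a-4 to Mir669a-12, which share 1 profile (limma adjusted p = 0.0397), made up 9 of the 14.

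Members within a measured host gene were set beside that gene. The 271 pairs of distinct profile and host gave Spearman's rho of 0.40 between the differences of member and host for dKO XY against control XY, and 0.63 for control XX against control XY, across pairs that share the same arrays. Of these pairs 46 have the single host Sfmbt2, and over the other 225 rho was 0.16 and 0.41. Over the 50 pairs on 1 strand whose member was above background, rho was 0.22 and 0.64. Of the 82 pairs outside Sfmbt2 whose member was above background, with rho of 0.05 and 0.43, 3 had a host called in dKO XY against control XY, and 1 pair, Mir691 and Robo2, was called for both.

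Of the lists of microRNAs known from other settings, most held 0 calls. In dKO XY against control XY, 1.41% of all autosomal clusters were called lower and 0.534% higher, so short lists could hold 0 calls at those shares. The lists below had median levels of 3.70 to 4.74, under the background level of 5.84, except the miR-181 genes at 7.12. For the dim lists, 0 calls does not show that the precursors were unchanged. The miR-34 and miR-449 genes (6 measured) had a median of -0.01 in dKO XY against control XY, the miR-200 group (4 measured) 0.06, the miR-290 and miR-302 genes of embryonic stem cells (7 measured) 0.07, and 11 microRNAs known from gonads 0.03, with 0 calls by limma in each of the 3 comparisons. The 4 measured miR-181 genes had a median of -0.26 with 0 calls, of which Mir181b-2 was at -0.80 (limma adjusted p = 0.0468). The 5 measured microRNAs known from stroma had a median of -0.01 in dKO XY, the 4 of blood -0.07, and Mir126b, the only measured 1 of endothelium, was at -0.05. 

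Of 33 listed genes that process or control microRNAs, 25 were measured, and 0 were called by limma in dKO XY against control XY, with 4 higher and 4 lower at an unadjusted p under 0.05, where 9.88% and 11.7% of all autosomal clusters were. Drosha, the nuclease that cuts the primary transcript, was at 0.13, Xpo5, which exports the hairpin, at -0.25 and Dicer1 at 0.15, and none of the 3 passed the test. In control XX against control XY, 6 were higher and 9 lower by the adjusted p alone, with a median near 0. Over all autosomal clusters, 10.8% were higher and 13.3% lower by this rule. The 25 genes were bright, with a median level of 10.29. Of 25295 autosomal clusters above the background level, 4899 were higher and 5943 lower. The 2 called were both higher, where 2.47% of all autosomal clusters were. Adarb1, an RNA editing enzyme, rose by 2.03 and Lin28b, which blocks let-7 maturation, by 1.33. Below the difference needed for a call, Dicer1 was at 0.68 (limma adjusted p = 1.17e-05), Xpo5 at -0.48 (limma adjusted p = 0.000272) and Prkra, a Dicer1 partner named after its value was seen, at -0.78 (limma adjusted p = 1.67e-05). In dKO XY against control XY, Adarb1 and Lin28b were at 0.59 (limma adjusted p = 0.00693) and 0.56 (limma adjusted p = 0.0105), below the difference needed for a call, and Adarb1 was lower by 1.45 against control XX.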

How the data were processed

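Total RNA of 15 gonad samples was amplified, labelled and hybridized to Affymetrix mouse Clariom D type arrays. The authors deposited RMA-normalized log2 values per transcript cluster, made with the TAC software; its version and the build of the array annotation were not given in the sources used here. The study's own test was a 1-way ANOVA. Probes lie on primary or precursor RNA, so mature microRNAs were not measured separately. RefSeq names and sequences are from GRCm38.p6.

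Of 72688 table rows, 6732 control sets were left out and 65956 clusters were fitted with limma 3.58.1 in R 4.3.3, with 1 mean for each group, eBayes and Benjamini-Hochberg adjustment. A call needed an adjusted p under 0.05 and a difference of at least 1. The number of arrays limits the precision, and p-values measure the spread between samples that the labels call separate. Members and lists were chosen with earlier results of these data known. Runs of neighbours join genes within 10 kb. A host's value is that of its brightest cluster.

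Named were, in each comparison, the 5 highest and 5 lowest called members whose groups do not overlap, up to 4 members of each family, run or list with 2 or more calls, up to 2 of each other list, their hosts, processing genes and targeted genes. Other called members and near misses were named after their values were seen. Replicate numbers were not used to pair the samples in the main fit, and the labels do not say whether they do. Correlations of same-numbered samples ran from -0.191 to 0.189, which cannot show whether they shared a litter or batch. Alternatives changed the normalization, dim-cluster filter, moderation, array weights, groups fitted, call rule and arrays included.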

Additional observations from a re-analysis of the deposited data

Results flagged for a closer look

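In 7 of 180 groups of 5 arrays examined, over 60 clusters, 1 array stood apart, with a gap to its nearest neighbour of more than 0.71 of the group's range; chance gives about 1 in 20. Mir200b lay at 4.14 in replicate 1 of control XX, with the next array at 4.53 (0.894 of the range). Mir16-2 lay at 6.0 in replicate 5 of dKO XY, next 6.73 (0.875). Mir376a, of the Dlk1-Dio3 region, lay at 6.01 in replicate 3 of control XX, next 5.65 (0.782), and Mir453, of the same region, at 9.34 in replicate 4 of control XX, next 9.92 (0.734). Mir467e lay at 9.62 in replicate 2 of dKO XY, next 8.91 (0.721), and Mir3074-2 at 6.11 in replicate 2 of control XY, next 5.84 (0.718). Mir669a-4, whose profile is shared by 9 Sfmbt2 rows, lay at 6.95 in replicate 1 of control XX, next 6.27 (0.715).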

How the results depend on the processing

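Of 915 alternative values for 40 named differences, 0 changed direction and 44 no longer passed. The 40 were chosen as called, with differences of at least 1. Several settings, such as a changed moderation or leaving out an array of the third group, cannot alter a difference. The 0 changes of direction are therefore no support. Of the called members, 13 of 18 (dKO XY against control XY), 11 of 31 (control XX against control XY) and 7 of 10 (dKO XY against control XX) kept their call without any 1 array. In dKO XY against control XY, the adjusted p alone gave 3 higher and 40 lower, with 24 in the Dlk1-Dio3 region; a second quantile normalization and a fit of the 2 groups alone each gave 1 higher. Without 1 array there were 0 to 1 higher and 14 to 25 lower, and 8 to 17 in the Dlk1-Dio3 region, the most without replicate 2 of control XY. In control XX against control XY, the adjusted p alone gave 23 higher and 112 lower, with 54 in the Sfmbt2 region. Centring gave 12 lower, 4 of them in that region, and a second quantile normalization 11 and 3. Without 1 array there were 5 to 6 higher and 10 to 43 lower, with 3 to 34 in the Sfmbt2 region. The count of lower members was 10 without replicate 5 of control XY or replicate 4 of control XX, 13 without replicate 3 of control XX, 41 without replicate 2 of control XY and 43 without replicate 1 of control XX. In dKO XY against control XX, the adjusted p alone gave 19 higher and 24 lower, array weights and the dim-cluster filter 2 higher each, and leaving out 1 array 1 to 2 higher and 6 to 11 lower. The causes were not tested. With the replicate number as a block, the counts were 0 higher and 18 lower, with 11 in the Dlk1-Dio3 region, then 6 higher and 25 lower, with 15 in the Sfmbt2 region, and 1 higher and 7 lower. Signal limits dim members, since 241 of 531 lay above the background level.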
